A study of Mus musculus with 4 samples.

Results

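Tmem119, Cx3cr1, Gpr34, Olfml3, Fcrls, Selplg, Sparc and Slc2a5 encode surface and secreted proteins that mark microglia, the brain's own macrophages, in their homeostatic (resting) state. They were taken by name as a listed set of 8 genes out of 52636 in the files, and each name matched 1 Ensembl gene. No cut on measured values picked them, but earlier results of these data were known when the set was chosen. RNA was measured by bulk RNA-seq in 4 libraries (AnnexinV-positive cells, n = 2; AnnexinV-negative cells, n = 2) from the dissociated corpus callosum of Mertk_KO mice fed 0.2% cuprizone for 4 weeks. Annexin V binds phosphatidylserine, a lipid that dying cells expose on their surface, and the study sets cells that bound it against cells that did not. Mertk, a receptor through which phagocytes clear apoptotic cells, is knocked out in both groups, and both received cuprizone, a copper chelator that kills oligodendrocytes. A Mertk wild-type or untreated group was not analysed here. The labels do not say whether the 2 libraries of a group came from separate mice or from pooled mice, so the spread behind each p-value is that of these libraries alone and may be technical.

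Microglia depend on CSF1 receptor signalling for survival and on TGF-beta for much of their resting expression programme, and the lineage factor PU.1 acts at many of their genes. Resting microglia sense neurons through surface receptors such as CX3CR1. Around damaged myelin they are known to lower part of this programme, including Tmem119 and Cx3cr1, while raising genes of the disease-associated state.

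All 8 genes are annotated as protein coding in GENCODE vM21 (GRCm38, the assembly of mm10). Tmem119 (chromosome 5, 113793729 to 113800516) and Selplg (chromosome 5, 113818536 to 113832644) lie 18019 bases apart on the minus strand, with no protein-coding gene between them. Olfml3 (103722222 to 103738001) and Fcrls (87250758 to 87263738) are both on the minus strand of chromosome 3. Cx3cr1 is on chromosome 9 (119901616 to 120069879, minus), Gpr34 on X (13632089 to 13640858, plus), Sparc on chromosome 11 (55394500 to 55423183, minus) and Slc2a5 on chromosome 4 (150119283 to 150144169, plus). Gpr34 lies within the span of Cask, on the opposite strand, with 0 shared exon bases. The annotated span of Cx3cr1 holds 8 other genes that share no exon bases with it. Cx3cr1 shares 78 of its 4505 exonic bases with the antisense gene Gm33858, which averaged an RPKM of 1.41 over the 4 libraries. The TruSeq RNA v2 kit does not keep strand, so reads in those 78 bases cannot be told apart. The other 6 genes overlapped no annotated gene.

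Upstream sequence is shown as a description only, and shared control of the 8 genes was not tested. RefSeq promoter windows (GRCm38.p6), each from 250 bases before to 50 after a start site, were at hand for 5 of the 8: Fcrls, Olfml3, Slc2a5, Cx3cr1 and Sparc; Tmem119, Gpr34 and Selplg had none. Below are the longest stretches upstream of the RefSeq start sites that no GENCODE exon covers, read 5′ to 3′. They are those of Fcrls (chr3:87263600-87263677, minus strand), Olfml3 (chr3:103738002-103738251, minus strand) and Slc2a5 (chr4:150119094-150119235, plus strand). The Fcrls stretch lies inside the annotated span of that gene in GENCODE (87250758 to 87263738). Capitals mark the PU.1 core GAGGAA.
Fcrls: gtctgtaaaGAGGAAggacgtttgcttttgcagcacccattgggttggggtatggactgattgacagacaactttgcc
Olfml3: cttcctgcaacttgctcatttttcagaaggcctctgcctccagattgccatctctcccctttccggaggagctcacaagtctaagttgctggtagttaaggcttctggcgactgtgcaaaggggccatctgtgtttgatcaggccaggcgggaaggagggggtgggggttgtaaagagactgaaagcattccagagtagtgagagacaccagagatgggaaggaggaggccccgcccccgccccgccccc
Slc2a5: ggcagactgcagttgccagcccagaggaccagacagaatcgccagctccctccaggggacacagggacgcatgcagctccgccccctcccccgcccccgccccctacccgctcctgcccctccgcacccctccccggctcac

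On both strands, GAGGAA occurred in 1 of the 5 windows, that of Fcrls, with its first base at -144 from the start site. That match lies inside the annotated span of Fcrls. The same letters were in 28.3% of the 32851 windows in the table and in 19 of the 34 windows of other microglia-enriched genes (55.9%). The ETS form AGGAAGT (9.35% of all windows) and the TATA box TATAAA (13.6% of all windows) also occurred in the Fcrls window alone among the 5, the ETS form on the reverse strand at -75 and the TATA box at -217. The ETS form and the PU.1 core share letters but matched different bases here. These matches are letters in a window and not measured sites.

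RPKM is reads per kilobase of gene divided by a library total, which here was not the reads in genes. Summed over all genes, RPKM was 200348 and 217768 in AnnexinV-positive libraries, against 122944 and 120680 in AnnexinV-negative libraries. That difference is part of every RPKM fold change, and scaling each library to the same sum removes it. All 8 genes were higher in AnnexinV-positive than in AnnexinV-negative libraries on the deposited RPKM scale, by 2.12-fold to 2.51-fold (ratio of means). Each passed the test over all 10927 genes that reached an RPKM of 1 in 2 or more libraries (limma on log2(RPKM + 0.1), Benjamini-Hochberg adjusted p 0.00341 to 0.00729). On that scale 30.8% of the genes tested were called higher and 9.26% lower, and the median log2 fold change of all genes tested was 0.45, against 1.24 for the 8. With each library centred on its median over the genes tested, 8 of 8 also passed, at 0.78 to 1.01, where 10.4% of all genes were called higher and 10.8% lower. With each library scaled to the same sum (TPM), the 8 log2 fold changes lay between 0.31 and 0.55, and 0 of 8 passed limma (2 of 8, Selplg and Sparc, had an unadjusted p under 0.05). On the TPM scale 1.03% of genes were called higher and 19.1% lower, with a median of -0.32 over all genes. In bulk samples, more cells of a type and more RNA per cell cannot be told apart.

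**Figure D1:**
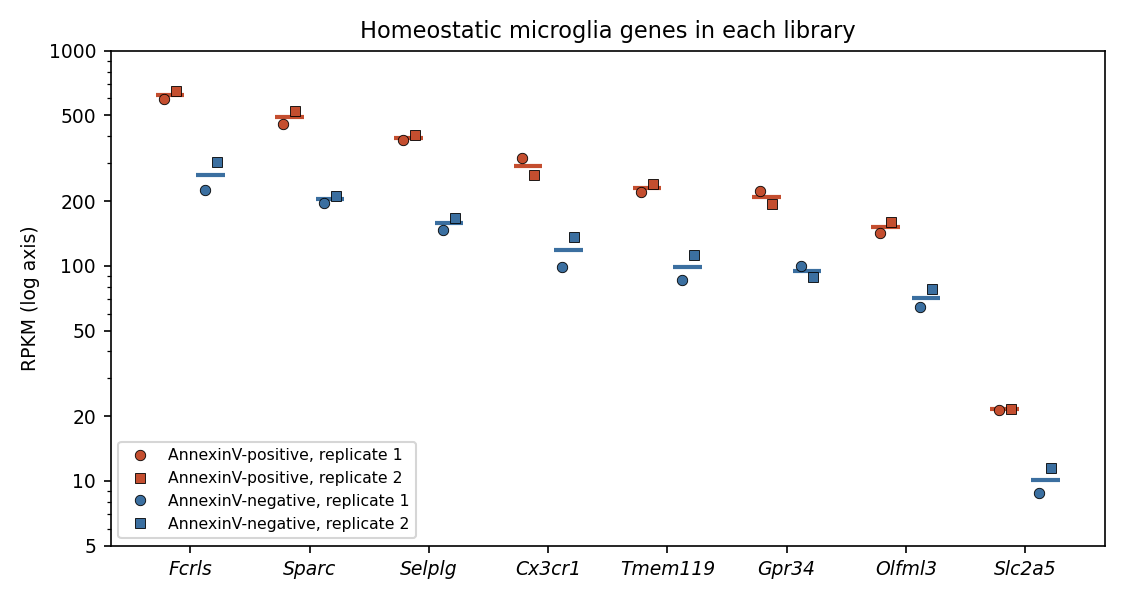
RPKM on a log axis of the 8 genes in each library, with replicate 1 as circles, replicate 2 as squares and bars at the mean of 2 libraries. Every AnnexinV-positive library lies above every AnnexinV-negative library for each gene, as for 60.9% of all genes tested. The genes run from Fcrls on the left to Slc2a5 on the right, by falling AnnexinV-positive mean.

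Among the surface receptors, Cx3cr1, the receptor for the neuronal chemokine fractalkine, had an RPKM of 316 and 265 in AnnexinV-positive libraries 1 and 2, against 99.0 and 137 in AnnexinV-negative libraries 1 and 2. The groups did not overlap, and 60.9% of all genes tested did not overlap in this direction either. The replicates of each group lay farther apart, as a ratio, than for any of the other 7 genes. Cx3cr1 averaged 291 ± 36.0 RPKM in AnnexinV-positive and 118 ± 26.7 in AnnexinV-negative cells (SD, n = 2 each), with a difference of 1.31 on the log2 scale (SE 0.22, 95% interval 0.78 to 1.85, limma adjusted p 0.00607).

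Gpr34 encodes a G protein-coupled receptor for lysophosphatidylserine, a lipid made from phosphatidylserine. Its RPKM was 223 and 193 in AnnexinV-positive libraries 1 and 2, against 99.8 and 89.0 in AnnexinV-negative libraries 1 and 2, so replicate 1 was the higher one in both groups. The log2 fold change was 1.14 (SE 0.19, 95% interval 0.70 to 1.58, limma adjusted p 0.00538).

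Selplg encodes PSGL-1, the selectin ligand that leukocytes carry. It was read at an RPKM of 384 and 405 in AnnexinV-positive libraries 1 and 2, against 147 and 168 in AnnexinV-negative libraries 1 and 2. This was the largest log2 fold change of the 8, at 1.33 (SE 0.18, 95% interval 0.89 to 1.76, limma adjusted p 0.00341). Its chromosomal neighbour Tmem119 encodes a membrane protein widely used to mark resident microglia. Tmem119 stood at an RPKM of 221 and 240 in AnnexinV-positive libraries 1 and 2, against 85.9 and 113 in AnnexinV-negative libraries 1 and 2. Its log2 fold change was 1.23 (SE 0.20, limma adjusted p 0.00566).

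Fcrls, a mouse gene of the Fc receptor-like family used as a microglia marker, was the most abundant of the 8 per length. It reached an RPKM of 594 and 652 in AnnexinV-positive libraries 1 and 2, against 226 and 304 in AnnexinV-negative libraries 1 and 2, a log2 difference of 1.25 (SE 0.22, limma adjusted p 0.00632). By RPKM it ranked 34 and 31 among all genes in the AnnexinV-positive libraries, and 44 and 31 in the AnnexinV-negative libraries. Its rank in AnnexinV-negative replicate 2 was therefore the same as in AnnexinV-positive replicate 2.

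Slc2a5 encodes GLUT5, the fructose transporter, and was the least abundant. It had an RPKM of 21.5 in both AnnexinV-positive libraries, against 8.75 and 11.5 in AnnexinV-negative libraries 1 and 2. Its rank was 1253 and 1361 in AnnexinV-positive libraries, against 2340 and 1687 in AnnexinV-negative libraries. The log2 fold change was 1.09 (SE 0.20, 95% interval 0.62 to 1.56, limma adjusted p 0.00729).

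Of the secreted proteins, Sparc, a collagen-binding matricellular protein, had an RPKM of 458 and 525 in AnnexinV-positive libraries 1 and 2, against 196 and 212 in AnnexinV-negative libraries 1 and 2. It differed by 1.27 on the log2 scale (SE 0.19, limma adjusted p 0.00414). Olfml3, a secreted olfactomedin-domain protein, had an RPKM of 142 and 161 in AnnexinV-positive libraries 1 and 2, against 64.3 and 78.2 in AnnexinV-negative libraries 1 and 2. With Slc2a5 this was the smallest log2 fold change of the 8, at 1.09 (SE 0.19, 95% interval 0.63 to 1.54, limma adjusted p 0.00659). The intervals of the smallest and the largest change overlapped.

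Because vessel cells and astrocytes also express Sparc, their marker lists were read beside it. The summed RPKM of 9 endothelial markers was 8.44 and 11.4 in AnnexinV-positive libraries, against 36.4 and 39.9 in AnnexinV-negative libraries, and 5 of 7 tested members fell (on the log2 scale Esam -2.86, Slco1a4 -2.66 and Cldn5 -2.90). That of 11 mural or fibroblast markers was 14.4 and 6.69 in AnnexinV-positive libraries, against 68.4 and 57.1 in AnnexinV-negative libraries, and 4 of 5 tested members fell (Vtn -4.55, Kcnj8 -3.09 and Rgs5 -2.995). The fibroblast collagens Col1a1, Col1a2 and Col3a1, with Dcn and Lum, stayed under an RPKM of 1 in all 4 libraries. That of 10 astrocyte markers was 33.8 and 50.5 in AnnexinV-positive libraries, against 103 and 74.9 in AnnexinV-negative libraries, and 8 of 10 fell, among them Fgfr3 (-1.53), Gja1 (-1.73) and S100b (-1.77). The part of these cells in the Sparc values was not tested.

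Selplg is shared with other leukocytes. Neutrophil markers summed to an RPKM of 1.08 and 1.11 in AnnexinV-positive libraries, against 16.6 and 8.01 in AnnexinV-negative libraries, and both tested members, S100a9 (-4.54) and S100a8 (-4.52), fell. T or NK cell markers summed to 2.46 and 3.71 in AnnexinV-positive libraries, against 8.67 and 4.19 in AnnexinV-negative libraries. Gzmb fell by 1.82, Nkg7 was at -0.90 without passing the test, and Cd3e, Cd3d, Cd3g, Cd4 and Cd8a stayed under an RPKM of 1 throughout. Under the minimum for testing, Klrb1c was at 1.24 and 0.940 RPKM in AnnexinV-positive libraries, against 0.557 and 0.647 in AnnexinV-negative libraries. Trac, also not tested, was at 0.0245 and 0.0844 RPKM in AnnexinV-positive libraries, against 1.01 and 0.300 in AnnexinV-negative libraries. Fn1 was the only tested monocyte marker, at a log2 fold change of 0.56 (limma adjusted p 0.353). Both tested B cell markers, Cd79b and Ighm, rose by 1.46 and 1.17 (0 of 2 past limma on the TPM scale), while Cd79a and Pax5 stayed under an RPKM of 1. All 8 genes of a list common to leukocytes rose, by a median of 1.32, and those with the smallest p were Spi1, which encodes PU.1 (1.43), the phosphatase Ptprc (1.36) and the actin-binding Coro1a (1.27). Of these genes 1 of 8 passed on the TPM scale. Border macrophage markers summed to only 18.1 and 17.9 in AnnexinV-positive libraries, against 7.08 and 5.88 in AnnexinV-negative libraries, and Lyve1, Cd163, Cd209f and Clec10a stayed under an RPKM of 1. All 3 tested, Pf4 (1.19), Folr2 (1.15) and Ms4a7 (1.57), rose, with 0 of 3 past limma on the TPM scale.

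The 8 genes were compared with 32 other microglia-enriched genes, a list that shares no member with them. All 32 rose on the RPKM scale, by a median of 1.29, and 8 of 32 passed on the TPM scale. Those with the smallest p included the crystallin Crybb1 (1.66) and the lipid enzyme Lpcat2 (1.37). When each library was centred on the mean of these 32 genes, the log2 fold changes of the 8 lay between -0.20 (Olfml3) and 0.04 (Selplg), and 0 of 8 passed limma (0 of 8 also at an unadjusted p under 0.05). Over all genes on this scale 0.11% were called higher and 63.1% lower. The 95% intervals, the lowest from -0.64 (Gpr34) and the highest up to 0.50 (Cx3cr1), leave room for differences of that size, so the test does not show that the 8 and the 32 changed alike. Disease-associated microglia genes, all 20 tested, rose by a median of 1.36, and those with the smallest p were the integrin Itgax (2.17), the galectin Lgals3 (1.78) and the lysozyme Lyz2 (1.43). On the TPM scale 5 of 20 passed. Relative to the 32 microglia-enriched genes only Itgax of these 20 was called (0.88, limma adjusted p 0.0140). Itgax was at 42.1 and 31.8 RPKM in AnnexinV-positive libraries, against 7.003 and 9.27 in AnnexinV-negative libraries.

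**Figure D2:**
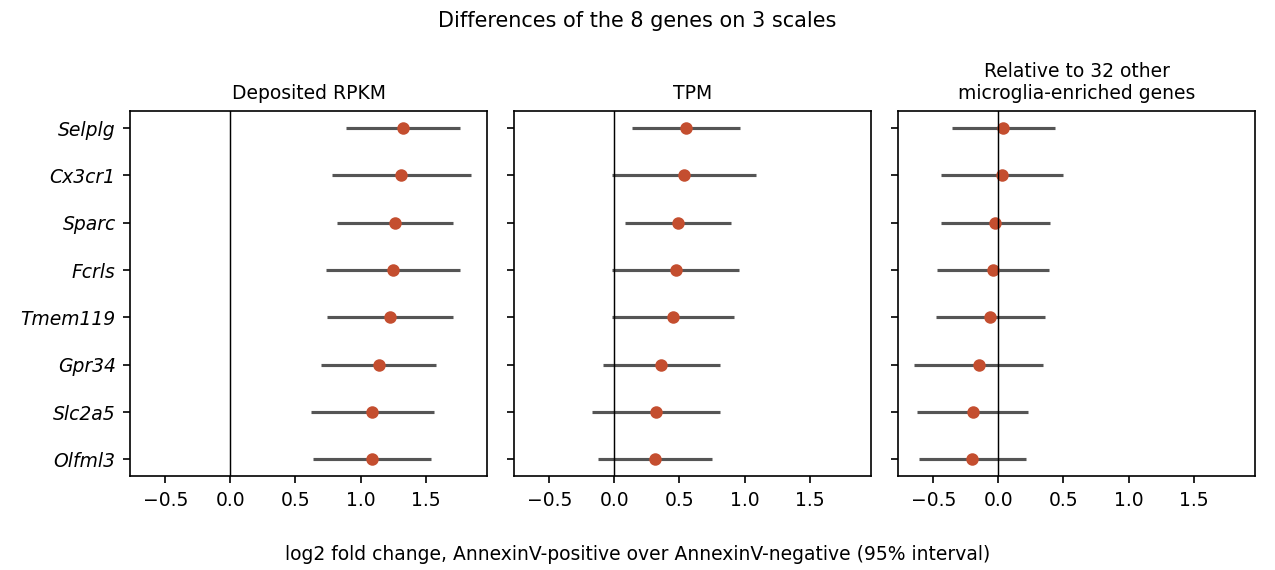
Log2 fold change of AnnexinV-positive over AnnexinV-negative libraries with 95% intervals from limma, on the deposited RPKM scale (left), as TPM (middle) and relative to 32 other microglia-enriched genes (right). All 8 intervals lie above 0 on the RPKM scale, 2 do on the TPM scale (Selplg and Sparc, before adjustment for multiple tests), and all 8 include 0 relative to the microglia-enriched genes.

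On the TPM scale each of the 8 genes was still higher in both AnnexinV-positive than in both AnnexinV-negative libraries, as were 12.2% of the genes tested. On the RPKM scale the 8 also did not overlap between groups in this direction, as did 60.9% of the genes tested. Fcrls averaged 2980 ± 18.5 TPM in AnnexinV-positive and 2178 ± 477 TPM in AnnexinV-negative cells (SD, n = 2 each). Gpr34 was at 1114 and 887 TPM in AnnexinV-positive libraries 1 and 2, against 812 and 738 TPM in AnnexinV-negative libraries 1 and 2. AnnexinV-negative replicate 2 came closest to the AnnexinV-positive libraries for the other 7 genes. For Slc2a5 it had 95.5 TPM, against 107 and 98.8 TPM in AnnexinV-positive libraries 1 and 2. Together the 8 genes made up 1.18% and 1.13% of the summed RPKM in AnnexinV-positive libraries, against 0.754% and 0.921% in AnnexinV-negative libraries. The summed RPKM of all genes itself was 200348 and 217768 in AnnexinV-positive libraries, against 122944 and 120680 in AnnexinV-negative libraries. Of 12 markers of mature oligodendrocytes, all 12 fell on both scales, by a median of -4.74 (RPKM) and -6.01 (TPM), with Mobp (-6.01), Mog (-6.11) and Ermn (-5.28) showing the smallest p. Their summed RPKM was 46.3 and 34.1 in AnnexinV-positive libraries, against 917 and 502 in AnnexinV-negative libraries, and the part of this difference in the scale of the 8 genes was not tested.

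**Figure D3:**
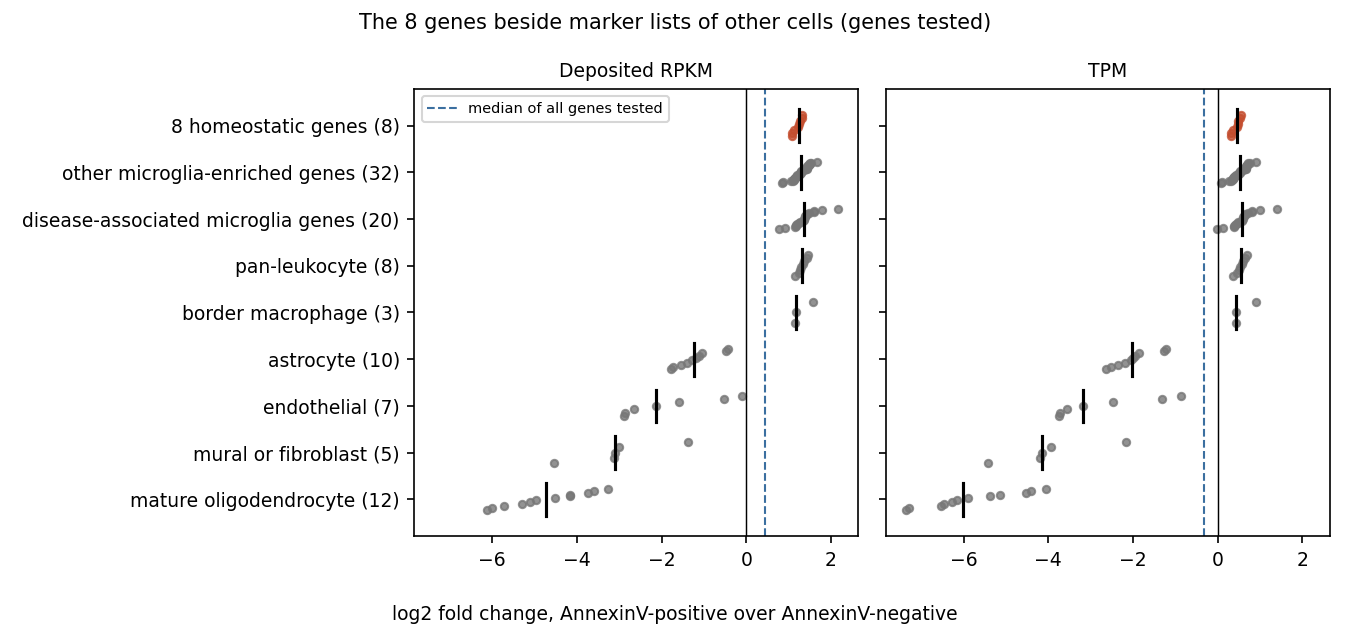
Log2 fold change of each tested gene of 9 lists on the RPKM (left) and TPM (right) scales, with black bars at the list median and a dashed line at the median of all genes tested (0.45 and -0.32). The 8 homeostatic genes lie in a narrow band beside the other microglia, leukocyte and border macrophage lists, to the right of the dashed line on both scales, while astrocyte, vascular and oligodendrocyte lists lie to its left.

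The order of the 8 genes was nearly the same in every library. Fcrls, Sparc and Selplg held ranks 1, 2 and 3 of the 8, and Olfml3 and Slc2a5 ranks 7 and 8, in all 4. In AnnexinV-positive cells the ranges of Tmem119 and Gpr34 overlapped, and no other neighbours in the order did. In AnnexinV-negative cells Cx3cr1, Tmem119 and Gpr34 overlapped one another. The levels per length rest on the authors' gene lengths, which no source used here gives.

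Ratios between 2 of the genes within a library do not depend on the scaling of that library. Of 28 such pairs, 20 had overlapping groups and 8 did not. Among 496 pairs of the 32 other microglia-enriched genes, 29.6% did not overlap, close to the 8 of 28 seen here. The largest shift was in the log2 ratio of Olfml3 to Selplg, which was -1.44 and -1.33 in AnnexinV-positive libraries, against -1.20 and -1.10 in AnnexinV-negative libraries, a difference of -0.24. The neighbours Tmem119 and Selplg had log2 ratios of -0.80 and -0.75 in AnnexinV-positive libraries, against -0.78 and -0.57 in AnnexinV-negative libraries, which overlapped. The median shift over the 28 pairs was 0.10 in size.

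The 5 genes whose values over the 4 libraries were most like the mean profile of the 8 were Tnfrsf1a, a TNF receptor, Timp2, an inhibitor of metalloproteinases, F11r, a junctional adhesion molecule, Nfe2l2, the transcription factor NRF2, and Bin2. They were ranked among 2393 genes with a mean RPKM of at least 10 by the root-mean-square difference of centred log2(RPKM + 0.1) values, which was 0.018 for Tnfrsf1a and 0.033 for Bin2. The 8 genes themselves stood at 0.056 (Tmem119) to 0.18 (Gpr34) from their own mean profile. Tnfrsf1a had an RPKM of 45.6 and 45.4 in AnnexinV-positive libraries, against 18.2 and 21.9 in AnnexinV-negative libraries. With 2 groups of 2 libraries this likeness reflects mainly a like difference between groups.

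Genes known to act with the 8 were read from a fixed list of 12, of which 7 were tested and 4 rose on the RPKM scale and 0 of 7 passed limma on the TPM scale. Cx3cl1, the fractalkine ligand of Cx3cr1, was at 0.455 and 0.276 RPKM in AnnexinV-positive libraries, against 1.38 and 0.976 in AnnexinV-negative libraries, under the minimum for testing. Selp and Sele, selectins that bind Selplg, and the growth factor Bmp4 stayed under an RPKM of 1. Adam10, which sheds fractalkine, was at 0.61 (limma adjusted p 0.0711). For lysophosphatidylserine, the ligand of Gpr34, Abhd12, the lipase that breaks it down, was at 339 and 361 RPKM in AnnexinV-positive libraries, against 129 and 168 in AnnexinV-negative libraries, and rose by 1.25 (SE 0.20, limma adjusted p 0.00540). Abhd16a, which makes it from phosphatidylserine, was at 12.9 and 13.2 RPKM in AnnexinV-positive libraries, against 10.01 and 10.2 in AnnexinV-negative libraries, and did not pass (0.36, limma adjusted p 0.128). Relative to the 32 microglia-enriched genes, where the median of all genes tested was -0.84 and 63.1% were called lower, 3 of the 7 were lower: Abhd16a (-0.92), Adam10 (-0.68) and Smad3 (-0.67). Abhd12 was at -0.04 on that scale (limma adjusted p 0.841). Khk, the kinase that phosphorylates fructose, rose by 1.16. Of the TGF-beta pathway, Tgfb1 (1.39) and Tgfbr2 (1.22) rose, and Smad3 was at 0.62 (limma adjusted p 0.0656).

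Paralogues did not follow the 8 as a group: of 16 listed, 9 were tested, 1 rose and 4 fell on the RPKM scale, with 0 higher and 4 lower on the TPM scale. Olfml1 was at 0.426 and 0.331 RPKM in AnnexinV-positive libraries, against 7.61 and 4.09 in AnnexinV-negative libraries, and fell by 3.58 on the log2 scale. The Sparc relatives Sparcl1 (-1.70), Spock1 (-4.16) and Smoc1 (-2.04) fell. Sparcl1, also called hevin and made by astrocytes, stood at 8.17 and 11.5 RPKM in AnnexinV-positive libraries, against 36.5 and 27.5 in AnnexinV-negative libraries. Fcrl1, a relative of Fcrls, rose by 1.24 (RPKM 2.50 and 2.97 in AnnexinV-positive libraries, against 0.934 and 1.28 in AnnexinV-negative libraries). The glucose transporters Slc2a1 and Slc2a3 were at 0.49 and 0.14 without passing, and Ccr1 and Olfml2b at 0.64 and 0.38. The fructose transporter Slc2a5 was read at 21.5 RPKM in both AnnexinV-positive libraries, beside 52.5 and 48.1 for Slc2a1 and 2.35 and 2.05 for Slc2a3.

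The libraries held about 67448000 and 60136000 reads in genes in AnnexinV-positive cells, against 50524000 and 43244000 in AnnexinV-negative cells, estimated from the deposited values. At that depth each of the 8 genes had about 6301 (Slc2a5) to 171585 (Sparc) reads per AnnexinV-positive library. Per AnnexinV-negative library it was about 3578 (Slc2a5) to 89119 (Sparc). These counts are approximate, because they use exonic lengths in GENCODE vM21, which may differ from the authors' lengths. Across genes, log values correlated at Pearson's r = 0.979 between AnnexinV-positive replicates and 0.951 between AnnexinV-negative replicates, and genes are not independent replicates. The choroid plexus markers, led by Ttr, summed to an RPKM of 407 and 59.9 in AnnexinV-positive libraries 1 and 2, against 380 and 21.5 in AnnexinV-negative libraries 1 and 2. That difference runs between replicates rather than between groups, with 0 of 5 tested (Rsph1, Folr1 and Kcnj13 with the smallest p) past limma (log2 fold changes 0.54, 0.67 and 0.60). Among the 8 genes only Gpr34 was higher in replicate 1 of both groups.

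**Figure D4:**
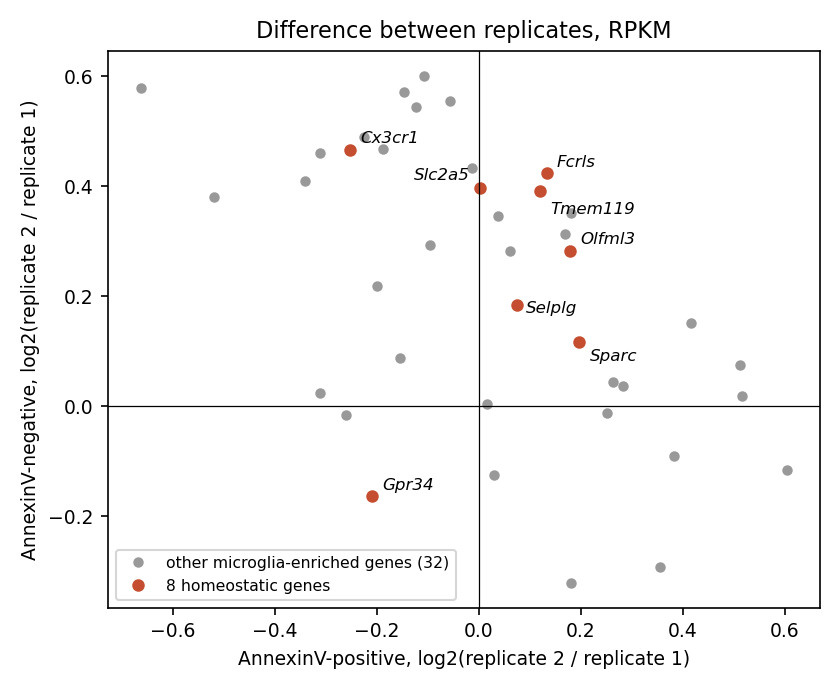
Log2 ratio of replicate 2 to replicate 1 (RPKM) in AnnexinV-positive libraries (x axis) against AnnexinV-negative libraries (y axis), for the 8 genes (red) and 32 other microglia-enriched genes (grey). In the AnnexinV-negative pair 7 of the 8 were higher in replicate 2, with Gpr34 the exception at -0.16, and in the AnnexinV-positive pair 6 were, with Cx3cr1 (-0.25) and Gpr34 (-0.21) the exceptions.

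On the RPKM scale replicates differed by less than the groups for all 8. On the TPM scale this did not hold for Slc2a5, at 107 and 98.8 TPM in AnnexinV-positive libraries, against 71.2 and 95.5 TPM in AnnexinV-negative libraries. On the RPKM scale the log2 ratio of replicate 2 to replicate 1 ran from -0.25 (Cx3cr1) to 0.20 (Sparc) in AnnexinV-positive libraries, and from -0.16 (Gpr34) to 0.47 (Cx3cr1) in AnnexinV-negative libraries. Its median over the 8 was 0.10 in the AnnexinV-positive and 0.34 in the AnnexinV-negative pair, beside 0.05 and 0.01 over all genes tested. An exact permutation test of 2 libraries against 2 cannot go below p = 0.333, so no single gene was tested that way.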

How the data were processed

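Each of 4 libraries had 1 table of values for 52636 Ensembl genes with no unit in its header. GSNAP and mm10 are named in the submitters' processing notes; no source used here gives the counter, gene lengths or filters. The deposited values were read as RPKM, because in 79.6% to 83.6% of values worth under 100 reads, division by a step inverse to exonic length (GENCODE vM21) gave whole reads to within 0.01. A read in 1 kb was worth 0.0101 and 0.0116 RPKM in AnnexinV-positive libraries, against 0.00833 and 0.0103 in AnnexinV-negative libraries, so the authors divided by totals other than reads in genes, and RPKM sums differ between groups. Symbols matched 52403 genes. Values became log2(RPKM + 0.1), which understates the change of low genes. Genes that reached an RPKM of 1 in 2 or more libraries entered, and limma 3.58.1 (R 4.3.3) with an intensity trend compared the groups with no covariate. A Benjamini-Hochberg adjusted p under 0.05 was called. TPM values are the deposited RPKM rescaled to 1 sum. Alternatives changed the pseudocount, filter, scaling, trend, replicate block and libraries. The 8 genes, the lists and the tests were chosen with earlier results of these data known. Genes named were the 8, the 3 smallest p of each list, tested partners and paralogues, and the 5 most alike; others were chosen after their values were seen. Some genes these rules would name are not reported here. No pairing of replicates is given by the labels.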

Additional observations from a re-analysis of the deposited data

How the results depend on the processing

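All 8 genes passed with pseudocounts of 0.01 and 1, no filter, centring on the median, no trend and the replicate block. Their log2 fold changes in these runs were 0.78 to 1.33. With a library left out they were 0.89 to 1.55, but then 1 group held 1 library and had no spread of its own. The runs in which they did not pass were TPM and centring on the 32 other microglia-enriched genes. The count of 8 was 0 on the TPM scale and 0 relative to the 32 genes, where Tmem119 (-0.0626), Gpr34 (-0.15), Olfml3 (-0.20), Fcrls (-0.0407), Sparc (-0.0228) and Slc2a5 (-0.20) turned below 0. Counts of all genes called higher (3364) were 113 on TPM, 12 relative to the 32, 1133 median-centred, 1865 unfiltered and 1297 to 3356 with a library left out (1749 without AnnexinV-positive replicate 1, 1297 without replicate 2). Those lower (1012) were 2091 on TPM, 6897 relative to the 32, 1184 median-centred and 2489 unfiltered. With pseudocounts of 0.01 and 1 they were 1006 and 1028, and with no trend 1031. The cause was not tested beyond the construction of each scale. Of the 32 genes, 8 were higher on TPM and 0 relative to their own mean. With the replicate number as a block, 8 of the 8 genes, 2443 genes higher and 957 lower were called. Over all 10927 genes the deviations of same-numbered libraries correlated at r = -0.21, although choroid plexus markers moved with the number, and with crossed numbers, an alternative chosen after seeing the data, 8 of the 8 genes, 4891 higher and 1136 lower were called.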

Other observations

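Among the 8 genes and the 32 other microglia-enriched genes, the gap between replicates went with exonic gene length, in opposite directions in the 2 groups; this was looked at after the values were seen. The Spearman correlation of length with the log2 ratio of replicate 2 to replicate 1 was -0.57 in the AnnexinV-positive pair and 0.63 in the AnnexinV-negative pair. Pearson's r was -0.44 and 0.48 in the same order. These are descriptions of 40 listed genes, which share their libraries, and the same was not looked at over all genes tested. Tgfbr1, with 6534 exonic bases, had log2 ratios of -0.66 in the AnnexinV-positive and 0.58 in the AnnexinV-negative pair. Tyrobp, with 667 exonic bases, had 0.61 and -0.12, and Aif1, with 1532, had 0.35 and -0.29. Not all long genes had opposite signs: Trem2 (4946 bases) was at 0.42 and 0.15, and Mef2c (15715 bases) at 0.06 and 0.28. Of the 8 homeostatic genes, Cx3cr1 (4505 bases) had opposite signs, at -0.25 and 0.47, and the other 7 did not. Olfml3, the longest of the 8 (6161 bases), was at 0.18 and 0.28. Gpr34 (2090 bases) was at -0.21 and -0.16, near the purinergic receptor P2ry12 (2546 bases), at -0.26 and -0.02. The part of gene length in the differences between groups was not tested.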
